A study of Rattus norvegicus with 6 samples.

Results

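Genes for the proteins of the cytosolic ribosome were followed by RNA sequencing in RSC96 cells, an immortalised rat line of Schwann cells, the glia that wrap peripheral nerve fibres. The set was chosen by name alone. It holds each listed gene whose symbol is Rpl or Rps with a number, an optional a, x or l and an optional last digit, together with Rplp0, Rplp1, Rplp2 and Rpsa, and leaves out S6 kinases and locus identifiers. This gave 93 of the 16849 genes in the table, 55 of the large subunit and 38 of the small subunit. With the rows read by their RefSeq names, 74 are the canonical proteins and 19 are copies or paralogs of one of them. Fau, Rack1 and Rpl36al also belong to ribosomes but lie outside the naming rule.

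PVDF@PDA cells were treated with a piezoelectric material under hypoxia, PCL@PDA cells with a non-piezoelectric material under hypoxia, and Control cells form the third condition. All cells were wild type per the labels. The hypoxic setting was modelled by 24 h in medium conditioned by macrophages, and the labels do not say whether Control cells received that medium. The design asks how the piezoelectric property acts on the transcriptome under hypoxia, which the comparison of PVDF@PDA with PCL@PDA addresses. In it the piezoelectric property cannot be told apart from other differences between the PVDF and PCL materials. Material and hypoxia cannot be told apart in either comparison with Control. Each condition has 2 libraries, numbered replicate 1 and replicate 3 in the titles and belonging to batch 1 and batch 3. No label says whether the libraries of a condition come from separate cultures, so the spread between them may be technical. A p-value here reflects that spread between the libraries at hand, mostly as pooled over genes rather than that of the single gene. The description given with both PCL@PDA libraries names PVDF@PDA, so their group was taken from title and treatment.

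Total counts ran between 32760123 and 35389307 per library. The PCL@PDA libraries stood farther apart from each other than the libraries of the other conditions, with a chi-square of their counts per degree of freedom of 10.4, against 4.83 for PVDF@PDA and 5.57 for Control. Levels per library are CPM, counts scaled to library size, after scaling by edgeR's trimmed mean of M values (TMM), and 3 counts, taken as the floor of detection, correspond to between 0.0861 and 0.0911 CPM. Of the defining Schwann cell markers, Ncam1 (101 to 138 CPM), Pmp22 (41.9 to 56.6 CPM) and Erbb3 (10.2 to 17.8 CPM) were detected, while S100b and Ngfr lay below 1 CPM in each library. The summed level of the 14 Schwann cell markers listed was 233 and 239 CPM in PVDF@PDA, 229 and 223 CPM in PCL@PDA, and 199 and 213 CPM in Control. Of the 11 of these markers tested, the comparisons with Control called 3 higher and 2 lower for PVDF@PDA, and 3 higher and 1 lower for PCL@PDA. Of all genes, 6.79% were called higher and 8.9% lower in PVDF@PDA, and 8.77% higher and 11.3% lower in PCL@PDA. The part of the Schwann cell markers in the results below was not tested. The macrophage gene Ptprc had at most 0.0287 CPM, and 12 macrophage markers listed summed to 8.99 and 9.02 CPM in PVDF@PDA, 8.91 and 8.03 CPM in PCL@PDA, and 8.40 and 8.38 CPM in Control, with 10 or 11 of the 12 under 1 CPM in each library. These sums rest largely on Cd14, at 4.95 and 5.05 CPM in PVDF@PDA, 4.51 and 4.79 CPM in PCL@PDA, and 5.91 and 6.11 CPM in Control. Coro1a lay on the other side of Control, at 1.88 and 1.75 CPM in PVDF@PDA, 1.97 and 1.58 CPM in PCL@PDA, and 0.900 and 0.832 CPM in Control. The 6 macrophage markers tested had medians against Control of 0.82 in PVDF@PDA and 0.55 in PCL@PDA (log2), and their smallest adjusted p by edgeR was 0.0688 in PVDF@PDA (Cd68) and 0.0852 in PCL@PDA (Coro1a). Cd68 was called higher in PVDF@PDA with the batch as a block. Their part in the results was not tested either. Since RNA was taken from whole cultures, fewer cells of a kind and less RNA per cell cannot be told apart.

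Ribosomal proteins coat and fold the ribosomal RNAs of the 2 subunits, of which the small one decodes the messenger RNA and the large one forms peptide bonds. Cells make the proteins in matched amounts, largely by translating their mRNAs together, because these begin with a run of pyrimidines (the terminal oligopyrimidine or TOP motif) that lets mTOR signalling switch their translation on or off. An mRNA level therefore does not give the rate at which the protein is made. A few members have further known roles, such as Rpl5 and Rpl11, which can bind Mdm2 and so stabilise p53.

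The pyrimidine start is shown here because it is the shared sequence feature through which these genes are known to be regulated, and because Rps27l and Rpl22l1, described below, differ in it from their parent genes. RefSeq's promoter table (GRCr8) gave a single window for 71 of the 93 genes, of which 58 were canonical. Each line runs from 20 bases before the annotated transcript start to 15 bases from it, so that the start is base 21, and capitals mark runs of at least 5 pyrimidines that touch the region within 5 bases of it.
Rplp0 (chr12:46718376-46718410, minus strand): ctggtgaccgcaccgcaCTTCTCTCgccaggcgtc
Rps18 (chr20:4933725-4933759, plus strand): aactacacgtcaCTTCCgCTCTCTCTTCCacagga
Rpl28 (chr1:78083518-78083552, minus strand): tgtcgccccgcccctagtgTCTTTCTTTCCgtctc
Rps28 (chr7:15311319-15311353, minus strand): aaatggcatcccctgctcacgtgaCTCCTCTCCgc
Rps27 (chr2:177964592-177964626, minus strand): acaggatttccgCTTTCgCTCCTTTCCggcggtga
Rps27l (chr8:76443638-76443672, plus strand): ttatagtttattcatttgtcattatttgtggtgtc
Rpl22 (chr5:168117941-168117975, plus strand): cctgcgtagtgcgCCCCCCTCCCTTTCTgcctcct
Rpl22l1 (chr2:113683176-113683210, plus strand): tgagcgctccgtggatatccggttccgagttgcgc

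Members were counted only where they had a single window, a limit that was not set for all windows in the table. A C at the annotated start followed by 4 pyrimidines stood in 21 of the 58 canonical windows (36.2%), against 881 of all 33469 windows in the table (2.63%). With the C allowed within 5 bases of the start, it stood in 36 of 58 (62.1%), against 17.0% of all windows. The motif CTTTCC lay within 30 bases of the start on the sense strand in 17 of the 58 (29.3%), against 2.59% of all windows, and its reverse complement GGAAAG in 1 of them (1.72%), against 2.78%. Both searches can match the same bases. Of the 13 windows of copies and paralogs, 0 had the C at the start with 4 pyrimidines and 2 had it within 5 bases. Rps27l and Rpl22l1, 2 of the paralogs described below, carry no C with 4 pyrimidines within 5 bases of the start, whereas their parents Rps27 and Rpl22 do. The canonical genes Rpl3 and Rpl18, also described below and not printed above, carry none either. A match describes these letters and was not tested as a binding or control site.

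The canonical genes were among the most abundant in these cells. Levels between genes are compared per length, as FPKM (fragments per kilobase of gene, scaled to library size). The 74 canonical genes had a median of 761 and 753 FPKM in PVDF@PDA, 782 and 765 FPKM in PCL@PDA, and 758 and 788 FPKM in Control. The median over all genes with enough counts to be tested was 7.54 to 8.10 FPKM per library. The highest were Rpl41 and Rps3a, with means over the 6 libraries of 2325 and 2292 FPKM. Rpl41 encodes the shortest protein of the ribosome, and Rps3a lies on the small subunit where initiation factors bind. The lowest canonical gene was Rpl15 (mean 142 FPKM), and Rps28 (170 FPKM) was next. The 3 genes of the lateral stalk, the flexible arm that recruits elongation factors, stood apart although their proteins assemble together, since Rplp0 averaged 1775 FPKM, Rplp1 889 FPKM and Rplp2 368 FPKM. Of the 19 copies and paralogs, 11 had enough counts to be tested. The other 8 (Rpl22l2, Rpl30l1, Rpl31l1, Rpl34l1, Rpl39l, Rpl3l, Rps17l and Rps19l1) had between 1 and 26 counts in all 6 libraries together. All 74 canonical genes were tested, which makes 85 tested genes.

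**Figure D1:**
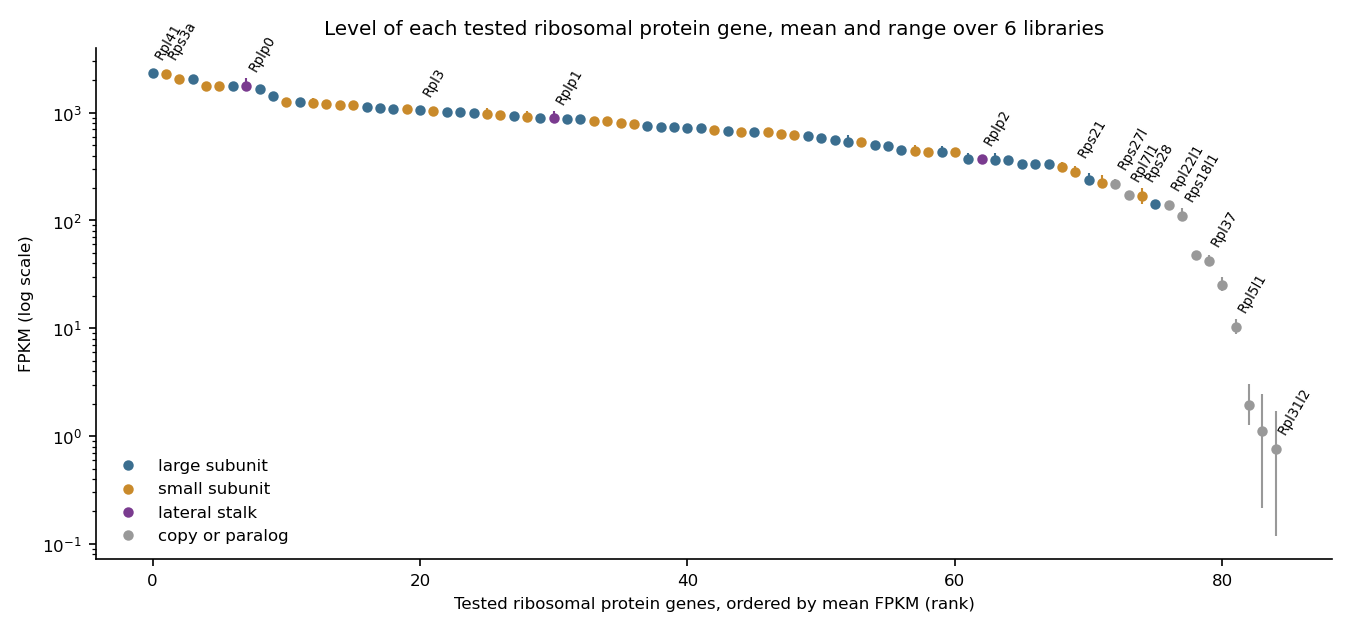
FPKM of the 85 tested ribosomal protein genes on a log axis, ordered by their mean, with points for the mean and lines for the range over 6 libraries, coloured by class. Canonical genes lie between 142 and 2325 FPKM on average, and the copies and paralogs make up most of the low end.

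Some rows are uncertain as single genes. Copies that resemble a parent closely can share reads with it, and how such reads were counted is not given in the sources used here. The newer annotation names the rows Rps19l2, Rps9l1 and Rpl37 as Rps19, Rps9 and Rpl37l1, so that the first 2 stand for the parent genes and the third for a copy. The rows Rps19l2 and Rps9l1 averaged 437 and 435 FPKM, which is within the canonical range, and the row Rpl37 had 13.8 to 17.0 CPM. In addition, 12 tested members overlap another tested gene and the counting strand is not given. An example is Rpl35, which differed by -0.0034 (log2, PVDF@PDA over PCL@PDA), while its overlapping neighbour Wdr38 was called higher in PVDF@PDA by 0.49 (adjusted p = 0.00205, edgeR's quasi-likelihood test).

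The share of the library given to ribosomal proteins was nearly the same in the 3 conditions. It was 4.63% and 4.65% of all counts in PVDF@PDA, 4.74% and 4.75% in PCL@PDA, and 4.60% and 4.70% in Control. The exact Clopper-Pearson 95% intervals, which cover counting error only, were 4.62 to 4.64% and 4.64 to 4.65% in PVDF@PDA, 4.73 to 4.75% and 4.74 to 4.76% in PCL@PDA, and 4.60 to 4.61% and 4.70 to 4.71% in Control. Both PCL@PDA libraries lay above both PVDF@PDA libraries and both Control libraries, and the Control libraries lay on either side of the PVDF@PDA pair. In summed FPKM the share was 15.7% in both PVDF@PDA libraries, 15.9% and 15.8% in PCL@PDA, and 15.7% and 15.9% in Control, so that on this scale PCL@PDA and Control overlapped. Counts of large-subunit genes exceeded those of small-subunit genes 1.36-fold and 1.35-fold in PVDF@PDA, 1.35-fold and 1.39-fold in PCL@PDA, and 1.37-fold in both Control libraries.

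**Figure D2:**
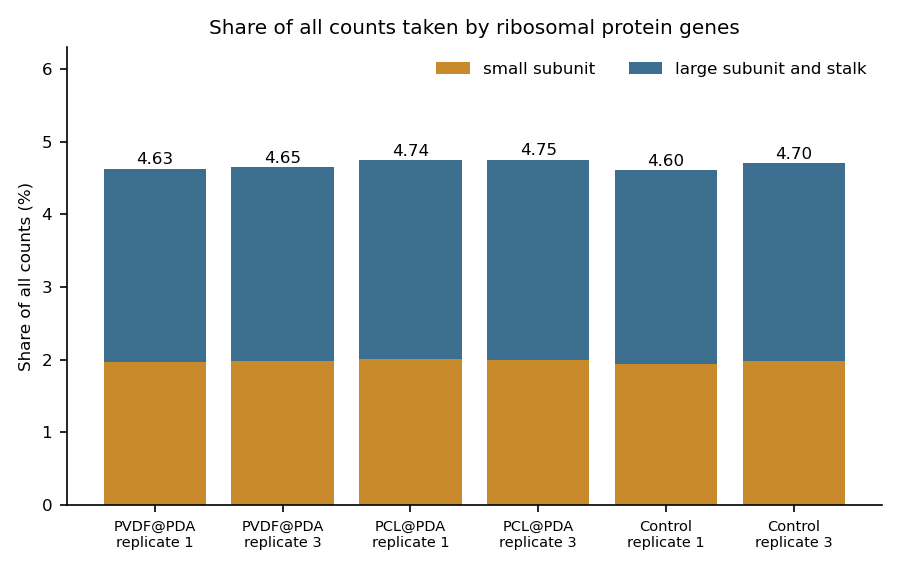
Share of all counts (percent, from 0) taken by the 93 ribosomal protein genes in each library, stacked by subunit. The 6 totals lie between 4.60% and 4.75%.

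No ribosomal protein gene was called between the piezoelectric and the non-piezoelectric material. Of 85 tested genes, 0 were higher and 0 lower in PVDF@PDA than in PCL@PDA by edgeR's quasi-likelihood test at an adjusted p below 0.05, where 0.0615% of all 13018 genes were called, 0.0538% higher and 0.00768% lower. At an unadjusted p below 0.05 there were 14 members, all lower in PVDF@PDA, against 1105 of all 13018 genes. DESeq2 called 0 members. The median log2 difference was -0.026, against 0.0045 over all genes, and 53 of the 85 lay below 0. It was -0.049 in batch 1 and -0.020 in batch 3, and it turned to 0.017 when a trend of counts with gene length was removed. The 95% intervals of 66 genes stayed within 0.25 of 0 on the log2 scale, and those of 82 within 0.5. The other 3, Rpl31l2, Rps12l2 and Rps12l3, had 74 to 209 counts in total.

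The 6 members with the smallest p were all lower in PVDF@PDA and came from both subunits and the stalk. Rplp0, the scaffold that ties the stalk to the large subunit, had 1865 and 1874 CPM in PVDF@PDA, against 1959.9 and 2259.8 CPM in PCL@PDA. Its difference was -0.17 ± 0.05 (log2, SE; adjusted p = 0.372), at -0.071 in batch 1 and -0.27 in batch 3. Rplp1, which binds Rplp0 as a dimer with Rplp2, had 404 and 431 CPM in PVDF@PDA, against 439 and 501 CPM in PCL@PDA (-0.17 ± 0.05, adjusted p = 0.398). Neither gene overlapped between the conditions. For genes named by a small p, here and below, that choice makes a lack of overlap likely, so it adds no support. The share of all genes without overlap is not given. Rplp2 lay on the other side of 0, with 265 and 271 CPM in PVDF@PDA, against 258 and 247 CPM in PCL@PDA (0.08 ± 0.05, adjusted p = 0.668).

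The large-subunit gene Rpl18 had 245 CPM in both PVDF@PDA libraries, against 263 and 301 CPM in PCL@PDA (-0.21 ± 0.06, adjusted p = 0.266). Rpl13 had 344 and 371 CPM in PVDF@PDA, against 383 and 433 CPM in PCL@PDA (-0.19 ± 0.06, adjusted p = 0.315). Rpl36 had 207 and 198 CPM in PVDF@PDA, against 224 and 239 CPM in PCL@PDA (-0.19 ± 0.06, adjusted p = 0.315). In Rpl18, Rpl13, Rpl36, Rplp0 and Rplp1 the PCL@PDA library of batch 3 was the highest of the 4. The small-subunit gene Rps29 had 151 and 162 CPM in PVDF@PDA, against 175 and 180.2 CPM in PCL@PDA (-0.18 ± 0.06, adjusted p = 0.392), again with no overlap. The highest difference was that of Rpl22l1, at 0.11 ± 0.07 (adjusted p = 0.657).

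With the batch as a block for the paired replicates, 5 members were called lower in PVDF@PDA, namely Rplp0 (adjusted p = 0.00811), Rpl13 (0.0163), Rpl18 (0.0163), Rpl36 (0.0407) and Rplp1 (0.0448), and 0 were called higher. In that fit 0.323% of all genes were called lower. For the median gene its p-values rest on a spread pooled over genes, not on that of the gene itself. With the block DESeq2 called 3 members and a non-robust edgeR fit 1, and with the length trend removed as well 0 were called. The shares of all genes called in these alternative block fits are not given. Without the PCL@PDA replicate 1 library, 3 members (Rpl26, Rpl38 and Rps27) were called higher and 15 lower, where that fit called 2.88% of all genes higher and 3.28% lower, whereas leaving out any other single library gave 0 in both directions.

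**Figure D3:**
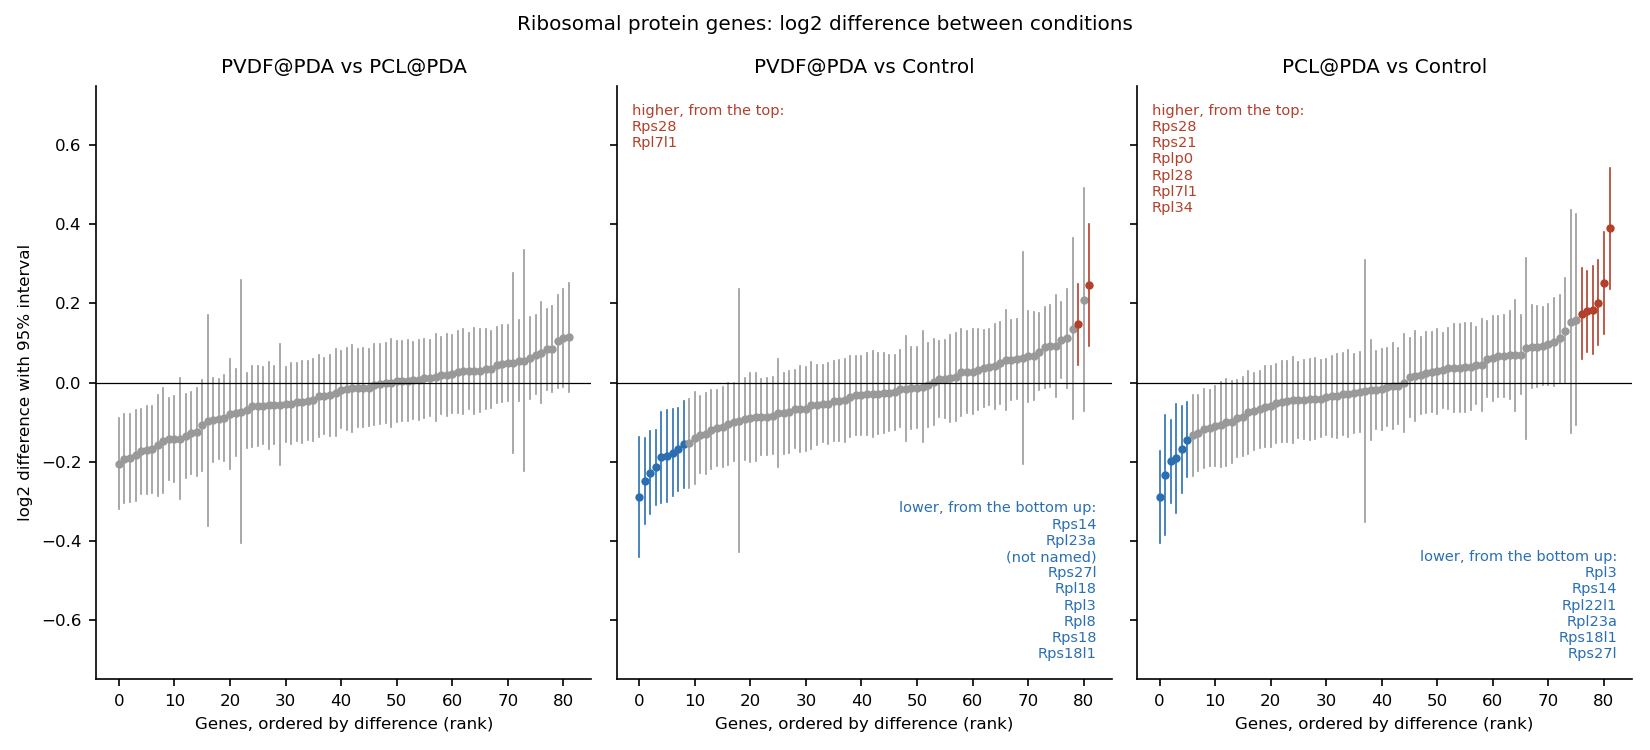
Log2 difference (points) with its 95% interval (lines) for 82 tested genes in each comparison, in the order of the difference. Coloured genes passed the test at an adjusted p below 0.05, and 1 of them is not named. The 3 copies Rpl31l2, Rps12l2 and Rps12l3, whose intervals are wider than the axis, are not drawn.

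Against Control, PVDF@PDA cells had 2 members higher and 9 lower. These are 2.35% and 10.6% of the 85 tested, where 6.79% of all genes were called higher, 8.9% lower and 15.7% in either direction, so that the share called lower is near the background and the share called higher below it. The changes were small, with a median size of 0.19 on the log2 scale among called members, against 0.34 among all called genes. The median difference of the 85 was -0.029 (0.0057 over all genes), with 54 below 0, and it turned to 0.0071 when libraries were scaled by their totals alone, a scaling that moved the median of all genes to 0.042 and gave 3 members higher and 4 lower. It was 0.0071 by limma on FPKM as well. In batch 1 it was -0.019 and in batch 3 -0.041. The share of all genes called with scaling by totals alone is not given, so the counts of that fit do not show a change particular to the members.

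Of the 40 large-subunit genes 5 fell in PVDF@PDA and 0 rose. Rpl3, which lies near the peptidyl transferase centre, had 1280.0 and 1272.5 CPM in PVDF@PDA, against 1469 and 1493 CPM in Control. It fell by 0.21 ± 0.05 on the log2 scale (SE; adjusted p = 0.000734), with the libraries of each condition close together and far from the other pair. Rpl8, another protein of the large-subunit core, had 571 and 567 CPM in PVDF@PDA, against 648 and 683 CPM in Control (-0.23 ± 0.05, adjusted p = 0.00107). Rpl23a, at the mouth of the tunnel through which the new protein leaves, had 974 and 963 CPM in PVDF@PDA, against 1106 and 1072 CPM in Control (-0.17 ± 0.05, adjusted p = 0.0186). Rpl18 also fell (-0.19 ± 0.06, adjusted p = 0.0169). In these 4, which the same test picked, both PVDF@PDA libraries lay below both Control libraries. Rpl5 (0.0098 ± 0.05) and Rpl11 (0.05 ± 0.05) were not called.

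Of the 31 small-subunit genes 1 rose and 2 fell. Rps28, a small protein near the exit of the mRNA channel, had 60.5 and 56.8 CPM in PVDF@PDA, against 49.4 and 49.3 CPM in Control. It was higher by 0.25 ± 0.08 (log2, SE; adjusted p = 0.0198), in both libraries. Rps18, in the head of the subunit, had 486 and 509.6 CPM in PVDF@PDA, against 555 and 629 CPM in Control (-0.25 ± 0.05, adjusted p = 0.000611). Rps14, in the platform, had 406 and 384 CPM in PVDF@PDA, against 438 and 441 CPM in Control (-0.16 ± 0.05, adjusted p = 0.0423). Neither Rps18 nor Rps14 overlapped between the conditions. Rpsa, also known as a laminin receptor, and Rps27a, made as a fusion with ubiquitin, were not called, at -0.025 ± 0.05 and 0.06 ± 0.05. None of the 3 stalk genes was called (unadjusted p below 0.05 in 0 of them, against 3671 of all 13018 genes, and 0 by DESeq2). Rplp0 differed by 0.028 ± 0.05 (adjusted p = 0.792).

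With the replicate block, 3 members were called higher and 15 lower in PVDF@PDA, where 8.75% and 11.2% of all genes were. Rpl3 and Rpl8 were called without each of the 6 libraries in turn. Both higher calls ended without either PVDF@PDA library or either Control library (adjusted p = 0.0555 to 0.283). Of the 9 lower calls, leaving out PVDF@PDA replicate 1 kept 5 and leaving out PVDF@PDA replicate 3 kept 4. Leaving out Control replicate 1 kept 5 and leaving out Control replicate 3 kept 4. Rps14 was lost in all 4 cases, and Rps18 only without Control replicate 3 (-0.16, adjusted p = 0.129). Rpl18 and Rpl23a were lost in 3 of the 4. Rps18l1 and Rps27l, described below, were lost in 2. Without either PCL@PDA library, which is not one of the libraries compared here, all 9 and both higher calls were kept, and 9 more members were called lower and 1 higher. In those fits 12.2% and 12.6% of all genes were called lower, and 9.02% and 8.84% higher, without replicate 1 and replicate 3 of PCL@PDA in turn.

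PCL@PDA cells had 6 members higher and 6 lower than Control. That is 7.06% of the 85 in each direction, against 8.77% of all genes called higher, 11.3% called lower and 20.1% in either direction, so both shares are below the background. The median size was 0.20 on the log2 scale among called members and 0.32 among all called genes. The median difference of the 85 was -0.0085 (0.0089 over all genes), with 45 below 0, and its sign depended on the setting. It was 0.017 in batch 1 and -0.026 in batch 3, 0.034 with scaling by library totals alone, where the median of all genes was 0.052 and 11 members were higher and 2 lower. It was 0.034 by limma on FPKM, and -0.039 with the length trend removed, where 4 members were higher and 12 lower. The shares of all genes called with totals alone or with the length trend removed are not given. The counts of members under these settings therefore do not show a change particular to the members. This comparison shares the Control libraries with the one above, so the values of a gene in the 2 comparisons are not independent.

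Among small-subunit genes 2 rose and 1 fell. Rps28 had 67.0 and 62.3 CPM in PCL@PDA, against 49.4 and 49.3 CPM in Control. Its difference of 0.39 ± 0.08 (log2, SE; adjusted p = 0.000125) was the largest among called members, and the conditions did not overlap. Rps21 had 104.6 and 109 CPM in PCL@PDA, against 89.3 and 90.3 CPM in Control (0.25 ± 0.06, adjusted p = 0.00288). In PVDF@PDA, at 98.4 and 93.2 CPM, Rps21 differed from Control by 0.09 ± 0.06 (adjusted p = 0.363), and from PCL@PDA by -0.16 ± 0.06 (adjusted p = 0.472). Rps14 had 417 and 366 CPM in PCL@PDA, against 438 and 441 CPM in Control, and fell by 0.17 ± 0.05 on the log2 scale (adjusted p = 0.0211).

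Of the 40 large-subunit genes 2 rose and 2 fell in PCL@PDA. Rpl28 had 381 and 426 CPM in PCL@PDA, against 339 and 370.4 CPM in Control (0.18 ± 0.06, adjusted p = 0.0127). Rpl34 had 241 and 271 CPM in PCL@PDA, against 219.8 and 234 CPM in Control (0.17 ± 0.06, adjusted p = 0.0233). In both genes replicate 3 was the higher library of each condition, and PCL@PDA replicate 1 lay only just above Control replicate 3. Rpl23a had 1013 and 884 CPM in PCL@PDA, against 1106 and 1072 CPM in Control (-0.20 ± 0.05, adjusted p = 0.00393). Rpl3 had 1349.7 and 1329 CPM in PCL@PDA, against 1469 and 1493 CPM in Control (-0.14 ± 0.05, adjusted p = 0.0223). Here too no library of PCL@PDA reached the lower Control library.

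The stalk gene Rplp0 rose in PCL@PDA, with 1959.9 and 2259.8 CPM, against 1762 and 1907 CPM in Control (0.20 ± 0.05, adjusted p = 0.00470). Both PCL@PDA libraries lay above both Control libraries, but batch 3 was the higher in each condition, and the difference was 0.15 in batch 1 and 0.25 in batch 3. Its partners were not called, at 0.11 ± 0.05 for Rplp1 (adjusted p = 0.155) and -0.044 ± 0.05 for Rplp2 (adjusted p = 0.635).

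With the replicate block, 6 members were called higher and 10 lower in PCL@PDA, where 10.3% and 13.1% of all genes were. Rps28 and Rps27l were called under each of the 21 settings tried, as was Rpl3 in PVDF@PDA against Control. Without PCL@PDA replicate 3, Rplp0 (0.091), Rpl28 (0.099), Rpl34 (0.084), Rpl23a (-0.11), Rps14 (-0.083) and Rpl22l1 (-0.16) were no longer called (adjusted p = 0.0936 to 0.345), and 5 others were. Without PCL@PDA replicate 1, Rps18l1 was lost (adjusted p = 0.0533), 11 members were called higher and 14 lower (10.2% and 13.5% of all genes in that fit), and the differences of Rpl23a and Rps14 grew to -0.30 and -0.27. Without Control replicate 1 only Rps28, Rps18l1 and Rps27l remained called, and without Control replicate 3 Rpl7l1, Rpl22l1, Rpl3, Rps14 and Rps18l1 were lost. Without Control replicate 1, Rps21 had an adjusted p of 0.0506 and Rpl28 a difference of 0.12, and without Control replicate 3 Rps18l1 differed by -0.15. Without either PVDF@PDA library Rpl22l1 and Rpl3 were lost (adjusted p = 0.0559 to 0.0567).

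**Figure D4:**
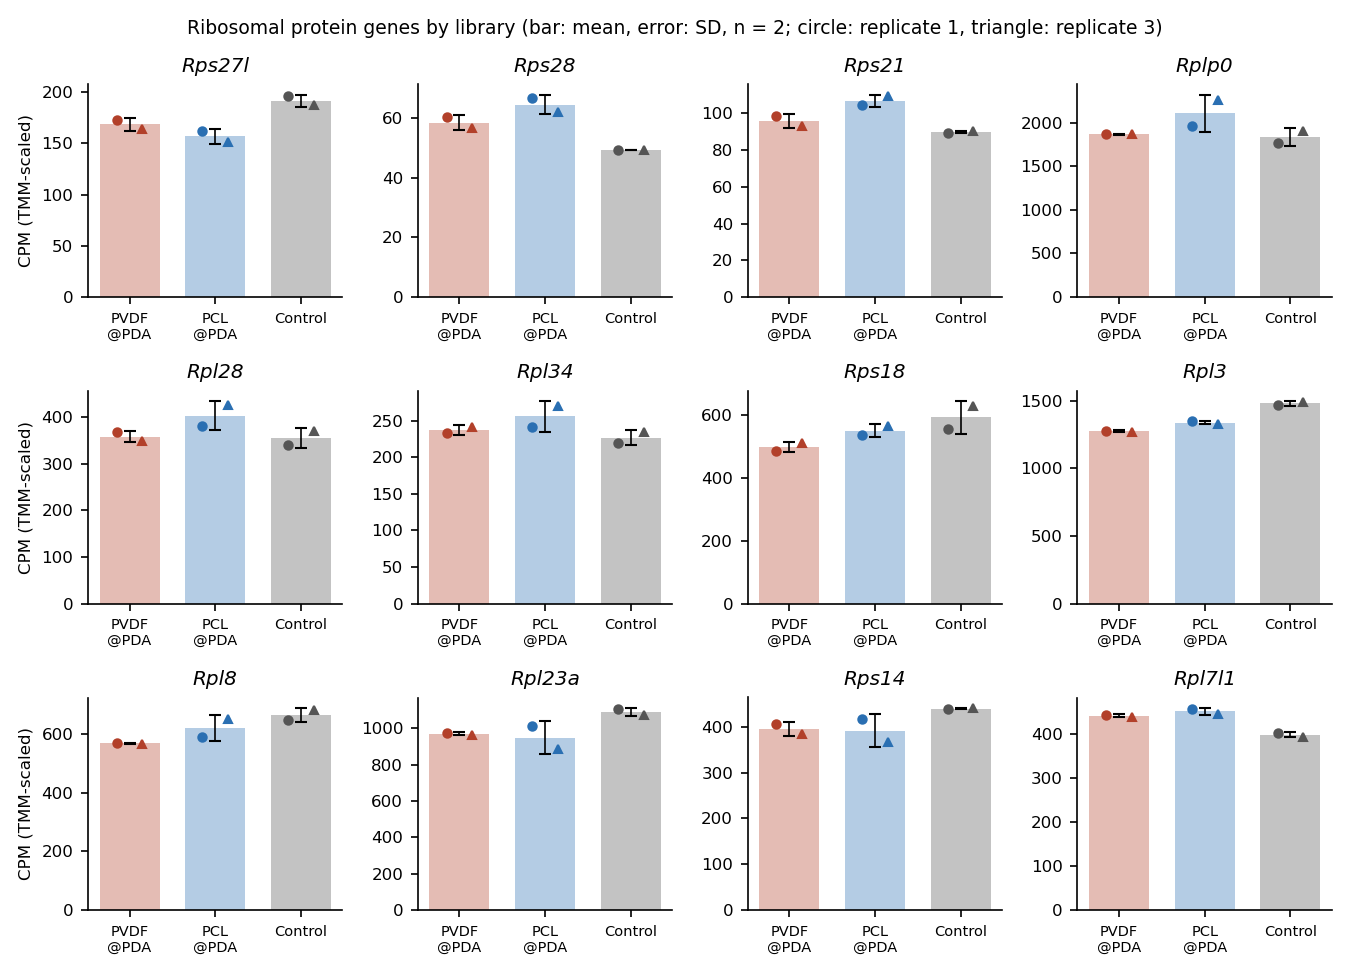
TMM-scaled CPM of 12 called genes by library, with bars for the mean, error bars for the SD (n = 2), circles for replicate 1 and triangles for replicate 3. PVDF@PDA, PCL@PDA and Control stand from left to right, and Rps28 and Rps27l show both material conditions on the same side of Control.

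The called paralogs moved in both directions while their parent genes, apart from Rps18 in PVDF@PDA, were not called. Rps27l, which in human cells is a target of p53, had 173 and 164 CPM in PVDF@PDA, 162 and 152 CPM in PCL@PDA, and 196 and 188 CPM in Control. It fell by 0.19 ± 0.06 on the log2 scale in PVDF@PDA against Control (adjusted p = 0.0197) and by 0.29 ± 0.06 in PCL@PDA against Control (adjusted p = 0.000158), with no overlap with Control. Rps27, its parent, differed from Control by 0.06 ± 0.06 in PVDF@PDA and by -0.019 ± 0.06 in PCL@PDA. The FPKM of Rps27l divided by that of Rps27 was 0.349 and 0.322 in PVDF@PDA, 0.310 and 0.352 in PCL@PDA, and 0.397 in both Control libraries, so this ratio too was lower in all 4 libraries with a material. The ratio was not tested.

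Rpl7l1, whose yeast counterpart Rlp7 is an assembly factor of the large subunit, rose against Control in both material conditions. It had 443 and 438 CPM in PVDF@PDA, 456 and 444 CPM in PCL@PDA, and 402 and 393 CPM in Control. The differences were 0.15 ± 0.05 in PVDF@PDA (adjusted p = 0.0383) and 0.18 ± 0.05 in PCL@PDA (adjusted p = 0.00780). Rpl7 was not called, at -0.084 ± 0.05 in PVDF@PDA and -0.09 ± 0.05 in PCL@PDA. The FPKM ratio of Rpl7l1 to Rpl7 was 0.160 in both PVDF@PDA libraries, 0.163 and 0.166 in PCL@PDA, and 0.137 and 0.136 in Control.

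Rpl22l1, which in mouse cells is repressed by its parent Rpl22, had 80.8 and 78.4 CPM in PVDF@PDA, 75.5 and 71.5 CPM in PCL@PDA, and 81.2 and 86.7 CPM in Control. It fell by 0.19 ± 0.07 on the log2 scale in PCL@PDA against Control (adjusted p = 0.0378) and differed by -0.078 ± 0.07 in PVDF@PDA (adjusted p = 0.497). Rpl22 differed from Control by 0.026 ± 0.05 in PVDF@PDA and by 0.04 ± 0.05 in PCL@PDA. Rps18l1 had 56.9 and 55.3 CPM in PVDF@PDA, 57.1 and 59.5 CPM in PCL@PDA, and 64.7 and 72.3 CPM in Control and fell against Control in both (-0.29 ± 0.08, adjusted p = 0.00497 in PVDF@PDA, and -0.23 ± 0.08, adjusted p = 0.0216 in PCL@PDA). Its FPKM was 0.107 to 0.119 of that of Rps18 in all libraries, and the rows may share reads. Rps18l1 also overlaps Sap30bp, which had a mean of 53.8 CPM, against 61.0 CPM for Rps18l1, and differed from Control by -0.11 in PVDF@PDA (adjusted p = 0.449) and by -0.18 in PCL@PDA (adjusted p = 0.144). The other 7 tested copies were not called in any comparison.

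The members with a mean above 1000 counts, the paralogs Rps27l, Rpl7l1, Rpl22l1 and Rps18l1 among them, varied little between libraries. The variation that remained was partly shared. Over the 78 members with a mean above 1000 counts, the log2 difference between replicate 3 and replicate 1 had an SD of 0.056 in PVDF@PDA, 0.111 in PCL@PDA and 0.065 in Control. Across these genes the difference in PCL@PDA correlated with that in Control (Pearson r = 0.69), while PVDF@PDA gave r = 0.255 with PCL@PDA and 0.136 with Control. Over all 13018 genes the same correlations were 0.13 for PCL@PDA with Control, -0.021 for PVDF@PDA with PCL@PDA and 0.043 for PVDF@PDA with Control. These are descriptions across genes of single library pairs, which share the batch, and genes are not independent replicates. Rplp0 was higher in replicate 3 by 0.21 in PCL@PDA and by 0.11 in Control, against 0.0068 in PVDF@PDA. The row Rps19l2 moved the same way, by 0.25 in PCL@PDA, 0.20 in Control and 0.032 in PVDF@PDA. Rps27 lay lower in replicate 3, by -0.28 in PCL@PDA and -0.062 in Control, and by 0.041 on the other side in PVDF@PDA. In PCL@PDA the differences of Rplp0 and Rps27 between libraries are at least as large as those between conditions given above, and their part in those comparisons was not tested.

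**Figure D5:**
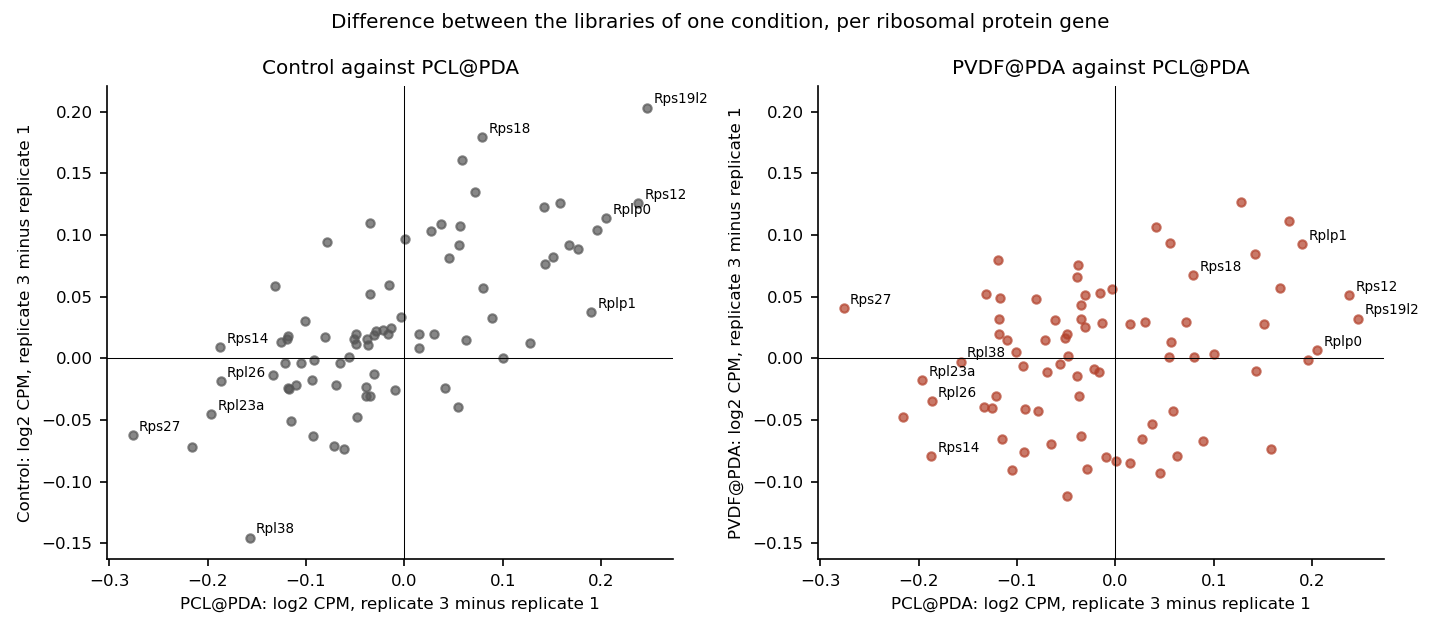
Log2 difference of CPM between replicate 3 and replicate 1 for 78 ribosomal protein genes, with PCL@PDA on the x axis and Control (left) or PVDF@PDA (right) on the y axis. The points of Control and PCL@PDA rise together (r = 0.69), and those of PVDF@PDA and PCL@PDA do so less (r = 0.255). The difference between the 2 correlations was not tested.

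Other genes of translation were called against Control, while between the materials few genes of any kind were called. On 7 lists of ribosome and translation genes outside the set, 0 of 237 tested genes were called between PVDF@PDA and PCL@PDA by edgeR's quasi-likelihood test. This is near the 0.0615% of all genes called. At an unadjusted p below 0.05 there were 24 of the 237, against 1105 of all 13018 genes, and DESeq2 called 0 of the 237. With the replicate block 1 was called, the elongation factor Eef2 (adjusted p = 0.0386), where 0.131% of all genes were called higher and 0.323% lower. Against Control, 40 of the 237 were called in PVDF@PDA (16.9%, near the 15.7% of all genes called in either direction) and 61 in PCL@PDA (25.7%, against 20.1% of all genes). For the counts of each list below, the shares of all genes called are 6.79% higher and 8.9% lower in PVDF@PDA, and 8.77% higher and 11.3% lower in PCL@PDA. With the replicate block these shares are 8.75% and 11.2% in PVDF@PDA, and 10.3% and 13.1% in PCL@PDA. The 4 tested ribosome genes outside the naming rule, Rack1, Fau and Rpl36al among them, were called in neither comparison (unadjusted p below 0.05 for 1 of 4 in PVDF@PDA and 0 of 4 in PCL@PDA, and 0 by DESeq2 in both). Of all 13018 genes, 3671 in PVDF@PDA and 4036 in PCL@PDA had an unadjusted p below 0.05 against Control. Rack1, a scaffold on the small subunit, was called lower in PVDF@PDA with the block (adjusted p = 0.00537).

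Of 43 initiation factors, which load the ribosome on the mRNA, 1 rose and 9 fell in PVDF@PDA and 1 rose and 12 fell in PCL@PDA against Control. Their median log2 difference was -0.044 in PVDF@PDA and -0.067 in PCL@PDA, where the medians of all genes were 0.0057 and 0.0089. In all 23.3% of the list was called in PVDF@PDA and 30.2% in PCL@PDA. With the replicate block 1 rose and 11 fell in PVDF@PDA, and 3 rose and 14 fell in PCL@PDA. Eif5, which triggers GTP hydrolysis at the start codon, averaged 317 ± 4.22 CPM in PVDF@PDA, 299 ± 31.2 CPM in PCL@PDA and 409 ± 20.4 CPM in Control (SD, n = 2 each). It fell by 0.37 ± 0.06 on the log2 scale in PVDF@PDA (adjusted p = 4.81e-06) and by 0.45 ± 0.06 in PCL@PDA (adjusted p = 4.85e-08). Eif4g2, a relative of the scaffold of the cap-binding complex, fell by 0.28 ± 0.05 in PVDF@PDA (adjusted p = 1.89e-05) and by 0.35 ± 0.05 in PCL@PDA (adjusted p = 1.57e-07). Of 16 elongation and termination factors, 2 rose and 3 fell in PVDF@PDA and 3 rose and 5 fell in PCL@PDA, with Abce1, which splits used ribosomes, at 886 ± 4.48 CPM in PVDF@PDA, 852 ± 33.2 CPM in PCL@PDA and 1020.0 ± 27.1 CPM in Control (-0.20 ± 0.05, adjusted p = 0.00211 in PVDF@PDA, and -0.26 ± 0.05, adjusted p = 6.83e-05 in PCL@PDA). The medians of the list were -0.036 in PVDF@PDA and 0.015 in PCL@PDA, and 31.2% and 50% of it were called. Eef2k, the kinase that inhibits Eef2, rose by 0.51 ± 0.13 in PVDF@PDA (adjusted p = 0.00506) and by 0.50 ± 0.13 in PCL@PDA (adjusted p = 0.00442).

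Of 31 genes of mTOR signalling and translational control, 2 rose and 5 fell in PVDF@PDA and 4 rose and 3 fell in PCL@PDA, with medians of -0.022 and -0.054. In each condition 22.6% of the list was called. With the replicate block 4 rose and 6 fell in PVDF@PDA, and 4 rose and 5 fell in PCL@PDA. Eif4ebp2, a repressor of cap-dependent initiation, averaged 127 ± 3.49 CPM in PVDF@PDA, 134 ± 8.70 CPM in PCL@PDA and 108 ± 1.41 CPM in Control (0.24 ± 0.06, adjusted p = 0.00458 in PVDF@PDA, and 0.32 ± 0.06, adjusted p = 9.51e-05 in PCL@PDA). Sesn2, an inhibitor of mTORC1, fell by 0.25 ± 0.05 on the log2 scale in PVDF@PDA (adjusted p = 0.000351) and by 0.15 ± 0.05 in PCL@PDA (adjusted p = 0.0374). Ddit4, another inhibitor of mTORC1, rose by 0.47 ± 0.12 in PCL@PDA (adjusted p = 0.00344) and differed by 0.31 ± 0.12 in PVDF@PDA (adjusted p = 0.0697, or 0.0420 with the replicate block). The mRNA data do not measure mTOR activity.

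Of 106 genes of ribosome assembly and rRNA processing, 1 rose and 6 fell in PVDF@PDA and 9 rose and 12 fell in PCL@PDA, with a median of -0.031 in each. The share called was 6.6% in PVDF@PDA, below that of all genes, and 19.8% in PCL@PDA, near it. With the replicate block 5 rose and 11 fell in PVDF@PDA, and 9 rose and 17 fell in PCL@PDA. Wdr12, a large-subunit assembly factor, averaged 109 ± 1.08 CPM in PVDF@PDA, 110.2 ± 8.77 CPM in PCL@PDA and 134 ± 7.47 CPM in Control (-0.30 ± 0.06, adjusted p = 0.000492 in PVDF@PDA, and -0.28 ± 0.06, adjusted p = 0.000806 in PCL@PDA). Nop10, of the pseudouridylation complexes, rose by 0.31 ± 0.09 in PVDF@PDA (adjusted p = 0.00766) and by 0.50 ± 0.09 in PCL@PDA (adjusted p = 1.17e-05). Of 21 genes of RNA polymerase I, which makes the large rRNAs, 3 rose and 3 fell in each of the 2 conditions, with medians of -0.045 in PVDF@PDA and -0.0074 in PCL@PDA and 28.6% of the list called in each. Ubtf, its promoter-binding factor, averaged 196 ± 17.2 CPM in PVDF@PDA, 204 ± 9.95 CPM in PCL@PDA and 239.9 ± 5.27 CPM in Control (-0.29 ± 0.06, adjusted p = 0.000198 in PVDF@PDA, and -0.23 ± 0.06, adjusted p = 0.00248 in PCL@PDA). Polr1g rose by 0.27 ± 0.08 in PVDF@PDA (adjusted p = 0.0142) and by 0.39 ± 0.08 in PCL@PDA (adjusted p = 0.000301).

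Of 17 chaperones and importers that handle new or ribosomal proteins, 1 rose and 4 fell in PVDF@PDA and 1 rose and 6 fell in PCL@PDA, with medians of -0.057 and -0.072 and 29.4% and 41.2% of the list called. With the replicate block 2 rose and 5 fell in PVDF@PDA, and 1 rose and 8 fell in PCL@PDA. The gene that rose in both was Hspa8, a general chaperone, at 1239 ± 17.0 CPM in PVDF@PDA, 1343 ± 33.6 CPM in PCL@PDA and 734 ± 13.9 CPM in Control (0.75 ± 0.05, adjusted p = 5.91e-18 in PVDF@PDA, and 0.87 ± 0.05, adjusted p = 1.98e-20 in PCL@PDA). Btf3 and Naca, which form the complex that meets nascent chains at the tunnel exit where Rpl23a lies, fell in both. Naca averaged 522 ± 18.7 CPM in PVDF@PDA, 518 ± 29.2 CPM in PCL@PDA and 614 ± 5.29 CPM in Control (-0.23 ± 0.05, adjusted p = 0.000699 in PVDF@PDA, and -0.25 ± 0.05, adjusted p = 0.000296 in PCL@PDA). These differences of Hspa8 were larger than that of any called ribosomal protein gene.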

How the data were processed

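The 6 libraries of RSC96 cells hold 2 per condition, grouped by title and treatment field. Raw counts came from the series-wide table as deposited, and FPKM, scaled by the authors to gene length and sequencing depth, from a deposited file for each library. The submitters' processing notes list mRatBN7.2 and DESeq2 1.4.5 with no role. For aligner, counter, annotation and strand nothing is given in the sources used here. RefSeq tables (GRCr8) matched all 93 genes by gene ID.

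All genes passing filterByExpr were fitted in edgeR 4.0.16 under R 4.3.3. The quasi-likelihood model was robust, used TMM factors and had a mean for each of the 3 conditions, leaving 3 residual degrees of freedom. This left 13018 genes to test. Every adjusted p is 2-sided from edgeR's quasi-likelihood test with Benjamini-Hochberg adjustment over all tested genes, called below 0.05, unless DESeq2 1.42.0 or limma 3.58.1 (on log2 of FPKM plus 1 or 0.1) is named. Differences are log2 with their SE. The code was tested on simulated data.

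The labels give batch 1 to each replicate 1 and batch 3 to each replicate 3, so the numbers pair the samples. Over all genes, the deviations of same-numbered libraries correlated at r = -0.021 between the 2 materials, at 0.043 between PVDF@PDA and Control, and at 0.13 for PCL@PDA and Control. The block fit left 2 residual degrees of freedom. The spread pooled over genes had a weight of 50.3 prior degrees of freedom (median over genes) in the main fit. In the block fit this median was infinite, so that the pooled spread alone counted for the median gene.

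The members and the 9 gene lists (7 of translation, Schwann cell markers and macrophage markers) were chosen with earlier results of these data known, and counts of members are descriptions. Named members are the 6 with the smallest p in each direction of each comparison, the stalk genes, Rpsa, Rps27a, Rpl5, Rpl11, the copies with their parents and the 3 highest and 3 lowest in FPKM. Of each list the 3 with the smallest p in a comparison could be named. Rpl26 was chosen after its values were seen, as were Rpl15, Rpl37, Rpl38, Rpl35, Wdr38, Sap30bp, Rack1, Fau and Rpl36al. Some genes counted here are not reported by name. The 2 libraries of each condition differed by more than sampling noise.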

Additional observations from a re-analysis of the deposited data

How the results depend on the processing

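With 2 libraries a condition, 40 counts of called members under alternative settings did not stay within 1.5 times the main ones, and 86 did. Leaving out each library in turn, the members called in PVDF@PDA against PCL@PDA numbered 0 to 3 higher and 0 to 15 lower, in PVDF@PDA against Control 0 to 3 higher and 4 to 18 lower, and in PCL@PDA against Control 1 to 11 higher and 2 to 14 lower. A library left alone in its condition is assumed to vary like the others.

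With the replicate block, 5 members were lower in PVDF@PDA against PCL@PDA (0 without it), 15 lower in PVDF@PDA against Control and 10 lower in PCL@PDA against Control. In that fit 0.323%, 11.2% and 13.1% of all genes were called lower, in the same order. With the block and the length trend removed, 15 were lower in PVDF@PDA and 18 in PCL@PDA against Control. Added after seeing the data, DESeq2 with the block gave 3 lower in PVDF@PDA against PCL@PDA and 14 in PVDF@PDA against Control. A non-robust fit with the block gave 1 and 14, and 10 lower in PCL@PDA against Control.

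In PVDF@PDA against Control, the length trend removed left 1 higher. An adjusted p below 0.01 left 0 higher and 4 lower. Scaling by totals alone gave 4 lower, the 4 libraries alone 18, and limma on FPKM 1 with either pseudocount. In PCL@PDA against Control, totals alone gave 11 higher and 2 lower. The length trend removed gave 12 lower, limma 1 with either pseudocount, and an adjusted p below 0.01 left 2 lower. The cause of these shifts was not tested, except that a stricter threshold calls fewer by construction. In this section, shares of all genes called are given only for the robust edgeR block fit with the length trend kept. Counts without such a share, those of the other block fits included, do not show a change particular to the members. The 86 counts that stayed within 1.5 times the main ones include unchanged counts of 0 in PVDF@PDA against PCL@PDA. Of the matching counts over all genes, 75 stayed within that range and 51 did not. Genes near 0.0911 CPM, such as the 8 untested copies, could not be resolved at this depth.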
